A study of Ovis aries with 10 samples.

Results

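Expression of 9 genes of lipid uptake, lipid droplets and lipid synthesis was examined in the left ventricular wall of fetal sheep. The genes were FABP4, FABP5, LPL, PPARG, PLIN1, PLIN5, ABHD5, ACLY and ACSS2, chosen by name. Every non-control probe whose gene name, accession or description gave one of these genes was taken, which gave 14 of the 15008 probes on the array. The 9 genes are among 641 named genes that could be tested. LPL had 3 probes, PLIN1, PLIN5 and ACSS2 had 2 each, and the other genes had 1 each. All 14 passed the filter on dim probes, as did 10265 probes in all.

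The series asked what prolonged maternal cortisol does to the fetal heart near term. Ewes carrying a singleton fetus were infused with cortisol (Solu-Cortef) at 1 mg/kg/d, or with vehicle, from day 115 of pregnancy. Tissue was collected at 139 to 144 days, once labour had begun. Each treatment had 7 ewes, and left ventricle from 5 control and 5 cortisol fetuses was read on 10 arrays. The drug went to the mother, fetal cortisol is not given in the labels used here, and all fetuses were exposed to the onset of labour. Breed and fetal sex are not given in those labels either. The tissue was taken whole, so each level is a mean over heart muscle, vessel, connective tissue and any fat cells, and fewer cells of a type and less RNA per cell cannot be told apart.

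A level below is the log2 intensity of a probe minus the 75th percentile of its own array, so a level of 0 is as bright as that percentile and each unit is a doubling. Probes differ in how brightly they bind, so levels are compared between arrays and not between probes. The 75th percentile lay between 177 and 286 scanner units, the share of spots well above background was 63.5% to 73.2%, and no spot was saturated. Replicates 1 to 3 of each group lay on slide 1 and replicates 4 and 5 on slide 2. On cortisol replicate 4 an area holding 1303 spots (8.57%) had low signal, and among the 14 probes it held only that of PPARG. The description of 9 of the 10 samples names the biceps femoris, while their title, source and tissue name the left ventricle. The heart muscle genes MYH7, TPM1, CRYAB and MB had a mean level of 7.59 to 7.99 over the arrays. Probes of the skeletal muscle genes MYH1, MYH2 and MYF5 gave a signal well above background on 0 of 10 arrays and those of TNNC2 and PYGM on 10. For MYOD1 the probe tested did so on 6 arrays and another probe on 1. Slow skeletal fibres also make MYH7, MB, TPM1 and CRYAB, so these values do not separate the tissues.

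The fetal heart runs mainly on glucose and lactate and turns to fatty acids around birth. Much of this fat comes from lipoproteins, whose triglyceride lipoprotein lipase (LPL) splits at the capillary wall, and binding proteins such as FABP4 and FABP5 carry them inside cells. Stored fat lies in droplets coated by perilipins. PLIN1 is the perilipin of fat cells and PLIN5 that of oxidative tissues such as heart, and ABHD5 switches on the lipase that opens the droplet. ACLY and ACSS2 make the acetyl-CoA from which fatty acids and sterols are built, ACLY from citrate and ACSS2 from acetate, a main fuel of ruminants. PPARG is the nuclear receptor that drives the fat cell programme. FABP4, LPL, PPARG and PLIN1 are all used as fat cell genes, although LPL is also made by heart muscle cells, and FABP4 by capillary endothelium and macrophages.

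Each of the 4 genes with several probes had a pair that overlapped in sequence, which bears on how far a single value can be trusted. These pairs are printed 5′ to 3′, as listed in the array's annotation, with the stretch that both probes hold in capitals. Probe 1 of a gene is the one with the highest mean level and stands for the gene below.

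PLIN1 probe 1: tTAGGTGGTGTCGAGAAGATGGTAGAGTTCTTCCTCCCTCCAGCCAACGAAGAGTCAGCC
PLIN1 probe 2: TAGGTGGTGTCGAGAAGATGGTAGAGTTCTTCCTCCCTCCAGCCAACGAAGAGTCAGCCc
PLIN5 probe 1: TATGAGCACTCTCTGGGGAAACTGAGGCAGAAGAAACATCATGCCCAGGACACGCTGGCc
PLIN5 probe 2: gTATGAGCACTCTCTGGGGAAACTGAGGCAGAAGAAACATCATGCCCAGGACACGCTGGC
ACSS2 probe 1: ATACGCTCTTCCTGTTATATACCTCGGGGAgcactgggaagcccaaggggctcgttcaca
ACSS2 probe 2: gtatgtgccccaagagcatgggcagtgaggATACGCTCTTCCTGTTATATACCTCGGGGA
LPL probe 2: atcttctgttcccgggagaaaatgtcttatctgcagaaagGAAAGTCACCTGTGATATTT
LPL probe 3: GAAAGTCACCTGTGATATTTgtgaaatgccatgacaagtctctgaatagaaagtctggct

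The PLIN1 probes shared 59 of 60 bases and were shifted by 1 base, and so were the PLIN5 probes. The ACSS2 probes shared 30 bases and LPL probes 2 and 3 shared 20. No other of the 15008 probes held a run of 20 bases of a member probe on either strand. The probes of PPARG and ACLY are shown because each ends on a stop codon (capitals) that closes an open frame, which places them at the end of the coding sequence.

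PPARG: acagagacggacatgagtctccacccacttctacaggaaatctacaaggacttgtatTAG
ACLY: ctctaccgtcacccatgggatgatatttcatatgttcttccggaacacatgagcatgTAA

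Cortisol was compared with control first. None of the 14 probes passed the threshold, an adjusted p of 0.05 in limma over all probes, against 0% of all 10265 probes. At an unadjusted p under 0.05 the count was 0 of 14, against 3.24% of all probes, that is 333, of which 164 were higher and 169 lower with cortisol. That split moved with the processing, to 784 higher and 71 lower with the normexp background correction and to 178 higher and 83 lower with the authors' deposited values. The control and cortisol arrays overlapped for all 14 probes, while for 0.838% of all probes they did not. The difference was above 0 for 9 of 14 probes, against 48.8% of all probes, and its median was 0.21, against -0.0044 over all probes. The adjusted p of the 14 lay between 0.990 and 0.995 in limma.

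**Figure D1:**
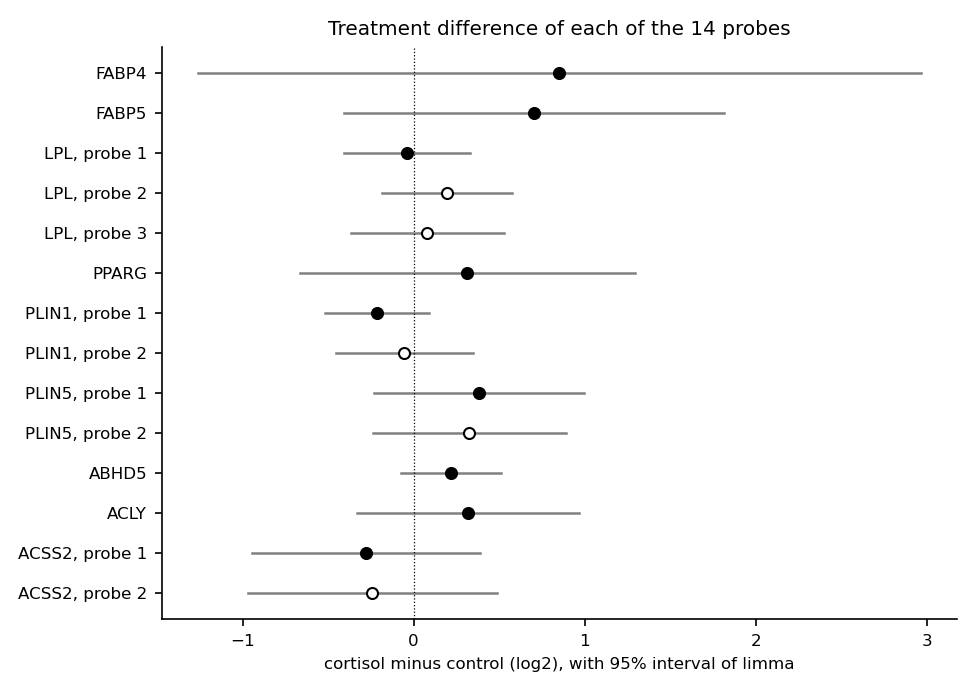
Difference in level between cortisol and control (log2, horizontal axis) for each of the 14 probes, with the 95% interval of limma as a line. Filled points are the probes that stand for their gene, open points the other probes. Every interval includes 0, and FABP4 has the widest, from -1.26 to 2.96.

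Uptake genes come first. FABP4, the fatty acid-binding protein of fat cells, had control levels of -3.40, -2.99, -0.40, -2.20 and -4.80 in replicates 1 to 5. With cortisol its levels were 0.19, -2.58, -0.89, -1.59 and -4.67, the last not well above background. High and low arrays occurred in both groups: control replicate 3 and cortisol replicates 1 and 3 were the highest, and replicate 5 of each group was the lowest. The arrays spanned 32.0-fold, and the SD over all arrays, 1.70, was larger than that of 99.5% of the probes tested. The difference between the groups was 0.85 ± 0.96 (SE), a 1.80-fold higher mean with a 95% interval from 0.417-fold to 7.80-fold. It ranged from 0.33 without cortisol replicate 1 to 1.54 without cortisol replicate 5, and was 0.34 without control replicate 5.

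FABP5, a fatty acid-binding protein of skin, endothelium and other tissues, had control levels of 3.07, 3.17, 3.04, 3.44 and 2.46. With cortisol its levels were 4.66, 2.95, 3.60, 2.24 and 5.26. Cortisol replicates 1, 3 and 5 lay above every control array and cortisol replicate 4 lay below every one. The SD was 0.36 in controls and 1.23 with cortisol (n = 5 each), and the arrays spanned 8.10-fold. The difference was 0.70 ± 0.50 (SE), a 1.63-fold higher mean with an interval from 0.755-fold to 3.52-fold. Without cortisol replicate 4, the array with the low area, it was 1.08 ± 0.42 (SE, unadjusted p = 0.0284, adjusted p = 0.941 in limma), and without cortisol replicate 5 it was 0.32 ± 0.42 (SE). The FABP5 probe did not lie in the low area.

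LPL was measured by a probe matched through its description, which places it in the untranslated end of the mRNA, and by the overlapping pair named for the gene. Probe 1 had levels of 4.32, 4.09, 4.08, 3.66 and 3.69 in controls and of 3.68, 4.03, 4.31, 3.74 and 3.88 with cortisol. The arrays of both groups lay within a 1.59-fold span, the SD over all arrays was 0.26, and the difference was -0.04 ± 0.17 (SE), with an interval from 0.755-fold to 1.26-fold of the control mean. Probe 2 had 0.19 ± 0.17 (SE) and probe 3 had 0.08 ± 0.20 (SE). The sign of the LPL difference thus depended on the probe, and none of the 3 differences exceeded the spread between fetuses.

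PPARG, the receptor that switches on fat cell genes, had control levels of -0.17, -0.19, 1.64, 0.31 and -0.57. With cortisol its levels were 1.03, 0.10, 1.06, -0.57 and 0.95. Control replicate 3 was the highest of all, and 3 cortisol arrays followed. The difference was 0.31 ± 0.44 (SE). With the low area left out, and with it the value of cortisol replicate 4, it was 0.58 ± 0.41 (SE), and without control replicate 3 it was 0.67 ± 0.35 (SE). It was smaller without control replicate 5 (0.12), with normexp (0.12) and in the authors' deposited values (0.098), and it was 0.18 without cortisol replicate 1 or 3.

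Droplet genes were next. PLIN1 probe 1 had control levels of -1.90, -1.97, -1.56, -1.44 and -2.01, and levels of -2.08, -2.10, -1.88, -2.11 and -1.79 with cortisol. All 5 cortisol arrays lay below the control mean of -1.78, and 3 lay below every control array. The difference was -0.21 ± 0.14 (SE), with an interval from 0.697-fold to 1.07-fold of the control mean. Probe 2, shifted by 1 base, had control levels of -2.09, -1.74, -1.60, -2.13 and -2.07, and levels of -2.19, -2.10, -1.79, -1.47 and -2.35 with cortisol. Its difference was -0.06 ± 0.18 (SE), and 2 of 5 cortisol arrays lay above its control mean.

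PLIN5 probe 1 had control levels of -2.17, -2.58, -2.35, -2.81 and -2.33. With cortisol it had -1.53, -3.18, -1.90, -1.93 and -1.80. On this probe cortisol replicates 1, 3, 4 and 5 lay above every control array, and cortisol replicate 2 lay below every one. On probe 2 cortisol replicate 4 had -2.55, below the control mean of -2.45, and 3 cortisol arrays lay above every control array. The difference was 0.38 ± 0.28 (SE), a 1.30-fold higher mean with an interval from 0.850-fold to 1.99-fold. Probe 2 had 0.32 ± 0.26 (SE). Without cortisol replicate 2, probe 1 had 0.66 ± 0.15 (SE, unadjusted p = 0.00173, adjusted p = 0.974 in limma) and probe 2 had 0.52 ± 0.22 (SE). Without cortisol replicate 1 these were 0.24 ± 0.28 (SE) and 0.17 ± 0.24 (SE), and over 24 choices of processing and arrays the PLIN5 difference was above 0 for both probes, from 0.16 to 0.70.

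ABHD5 had the smallest spread of the probes standing for the 9 genes, with an SD of 0.22 over all arrays. Its control levels were -0.73, -0.80, -0.78, -0.91 and -0.94. With cortisol its levels were -0.44, -0.60, -0.76, -0.31 and -0.97, so that 4 of 5 lay above the control mean and 1 below every control array. The difference was 0.22 ± 0.13 (SE), with an interval from 0.949-fold to 1.42-fold of the control mean. The ABHD5 level was lower on brighter arrays (r = -0.68 with the 75th percentile over 10 arrays), and the part of brightness in the difference was not tested.

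The acetyl-CoA genes had differences of opposite sign. ACLY had control levels of -1.99, -0.95, -2.09, -1.08 and -1.60. With cortisol it had -1.19, -1.43, -1.88, -0.45 and -1.18, with cortisol replicate 4 the only array above every control array. The difference was 0.32 ± 0.29 (SE), and 0.12 ± 0.26 (SE) without cortisol replicate 4.

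ACSS2 probe 1 had control levels of 0.47, -0.21, -0.43, -0.93 and -0.44. With cortisol it had 0.05, -0.52, -0.15, -1.11 and -1.19. The difference was -0.28 ± 0.30 (SE) for probe 1 and -0.24 ± 0.33 (SE) for probe 2, and for probe 1 it was -0.08 without control replicate 1. Low ACSS2 values lay on slide 2: the mean level of probe 1 was -0.13 on slide 1 and -0.92 on slide 2. With treatment in the model, slide 2 minus slide 1 was -0.79 ± 0.20 (SE, unadjusted p = 0.00308, adjusted p = 0.427 in limma) for probe 1 and -0.88 ± 0.21 (SE) for probe 2. The LPL probes were also lower on slide 2, by -0.34, -0.38 and -0.45 for probes 1 to 3, and FABP4 by -1.64 ± 0.87 (SE). In limma 0 of the 10265 probes passed for the slides, and 933 had an unadjusted p under 0.05. Within slide 1 the treatment difference of ACSS2 probe 1 was -0.15 ± 0.26 (SE) and within slide 2 it was -0.46 ± 0.26 (SE).

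**Figure D2:**
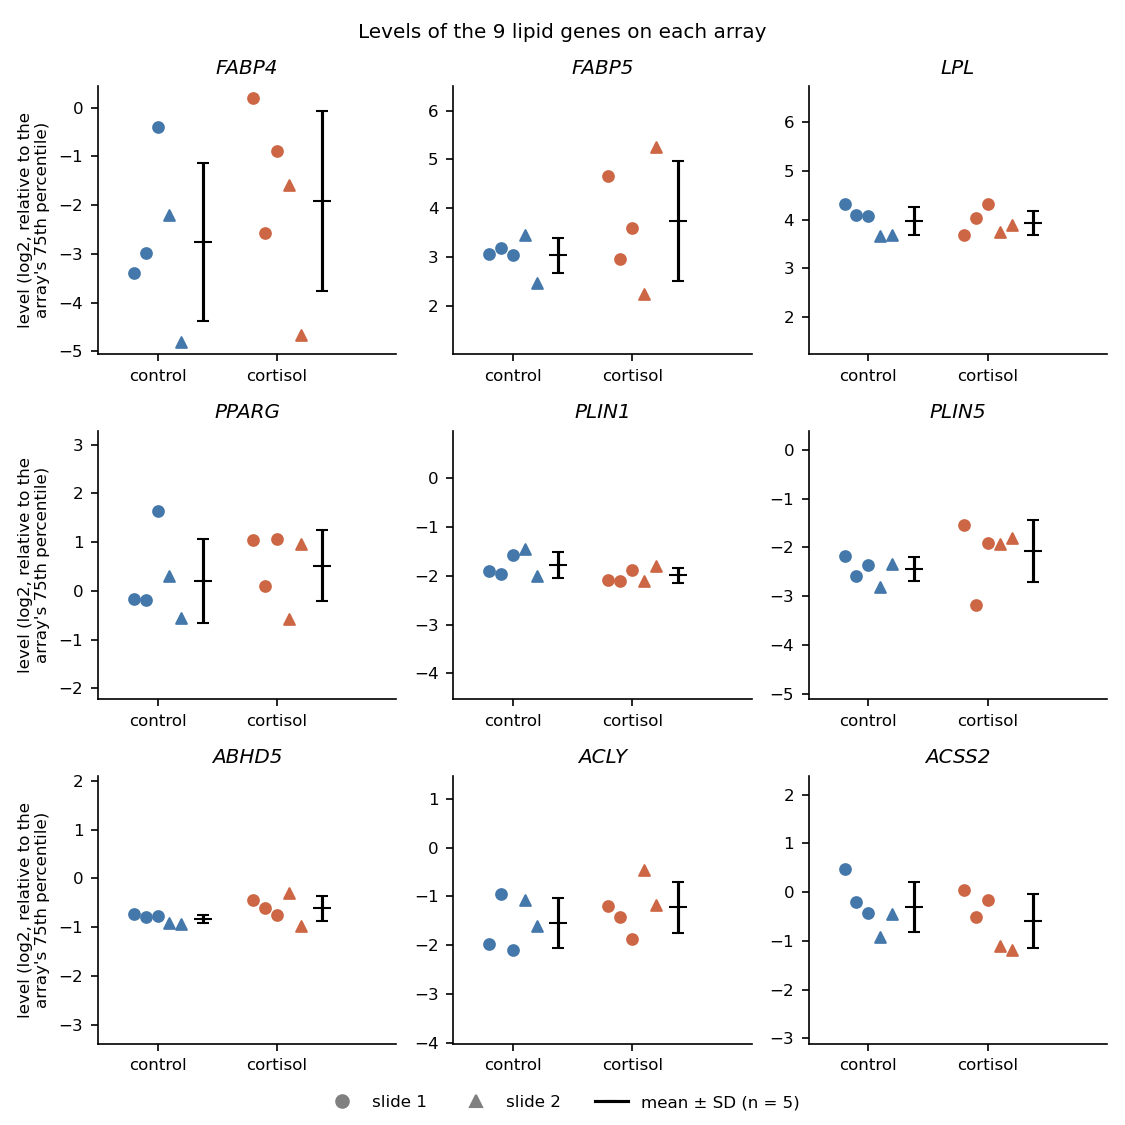
Level of the probe standing for each of the 9 genes (log2, relative to the array's 75th percentile) on each array, in control (blue) and cortisol (orange) fetuses, with circles for slide 1, triangles for slide 2 and the mean ± SD (n = 5) in black. The vertical axes span the same number of log2 units. FABP4 covers nearly the whole span, from -4.80 to 0.19, in both groups alike, while LPL, PLIN1 and ABHD5 stay within 1.59-fold.

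The overlapping probes set a scale for the error of one value. The ACSS2 probes had a Pearson correlation of 0.99 over the 10 arrays, and the SD of their difference was 0.088. LPL probes 2 and 3 had r = 0.95 (SD of the difference 0.11), and probe 1, from another stretch of the mRNA, had r = 0.78 and 0.86 with them. The PLIN5 probes had r = 0.89 (SD of the difference 0.23), and 0.98 without cortisol replicate 4, on which they lay farthest apart. The PLIN1 probes, with the same 59 of 60 bases in common, had r = -0.06. The SD of the difference between the PLIN1 probes, 0.38, was larger than the SD of either probe over the arrays, 0.23 and 0.28. Probe 1 minus probe 2 was 0.69 on control replicate 4 and -0.64 on cortisol replicate 4, and r was 0.19 without cortisol replicate 4. All PLIN1 spots were well above background on 10 of 10 arrays, and no PLIN1 probe lay in the low area. The PLIN1 difference and each correlation with PLIN1 below carry this disagreement between its probes.

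**Figure D3:**
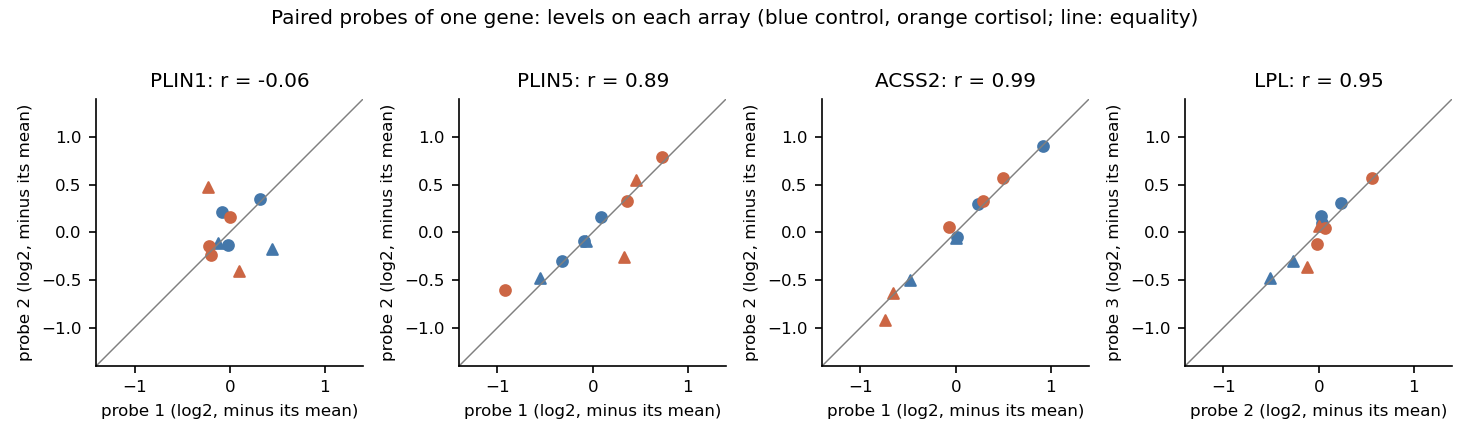
Level of one probe against the other probe of the same gene over the 10 arrays (log2, each minus its own mean), for the overlapping pairs of PLIN1, PLIN5, ACSS2 and LPL, with control in blue, cortisol in orange, circles for slide 1, triangles for slide 2 and the line of equality. The ACSS2 points follow the line (r = 0.99) and the PLIN1 points do not (r = -0.06).

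Whether the fat cell genes varied together from fetus to fetus was asked next. None of the 36 pairs among the 9 genes passed an adjusted p of 0.05 (permutation test, 100000 resamples, two-sided, Pearson or Spearman). The 6 pairs among FABP4, LPL, PPARG and PLIN1 had a median r of 0.14, from 0.0014 to 0.54. The 20 pairs of one of them with another member had a median of -0.06, and the 10 remaining pairs 0.08. FABP4, which varied most, had r = 0.05 with LPL (rho = -0.10, permutation p = 0.892 and 0.785) and r = 0.07 with PLIN1 (rho = -0.0061). For LPL the other probes had r = 0.25 and 0.16 with FABP4, and for PLIN1 the other probe had 0.44. FABP4 and FABP5 had r = 0.04, but 0.61 without cortisol replicate 5, where FABP4 was not well above background, 0.68 over slide 1 and -0.59 without cortisol replicate 1 and control replicate 5.

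FABP4 and PPARG had r = 0.54 and rho = 0.58 (permutation p = 0.106 and 0.0895, adjusted p = 0.544 and 0.546). Without the 2 arrays farthest from the FABP4 median, cortisol replicate 1 and control replicate 5, r was 0.33. It was 0.92 over the 6 arrays of slide 1, and slide 2 holds too few arrays for a value. With the low area left out, and with it the PPARG value of cortisol replicate 4, it was 0.68 (adjusted p = 0.532 in the permutation test). PPARG and PLIN1 had r = 0.48 and rho = 0.59, with no pass after adjustment, and the other PLIN1 probe had r = -0.09 with PPARG. For PPARG and PLIN1 probe 1, r was 0.39 with the low area left out.

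Of the pairs outside the fat cell genes or across the groups, PPARG and FABP5 had r = 0.62 and rho = 0.62 (permutation p = 0.0543 and 0.0597, adjusted p = 0.532 and 0.546). This pair passed without control replicate 3 (r = 0.87, adjusted p = 0.0314 in the exact permutation test) and without control replicate 3 and cortisol replicate 3 together (r = 0.95, adjusted p = 0.0313 in the exact permutation test). Over slide 1 its r was 0.37. With the low area left out, and with it the PPARG value of cortisol replicate 4, r was 0.54 (adjusted p = 0.734 in the permutation test). That array had the lowest level of PPARG and of FABP5, and it was kept in both sets of arrays in which the pair passed. FABP4 and ABHD5 had r = 0.60, and LPL and ACLY had r = -0.62. ACLY and ACSS2, which both supply acetyl-CoA, had r = -0.59 and rho = -0.54, and r = -0.35 between deviations from the slide means. PLIN1 and ABHD5 had the 1 unadjusted p under 0.05, for rho (-0.66, permutation p = 0.0449, adjusted p = 0.546), with r = -0.60.

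**Figure D4:**
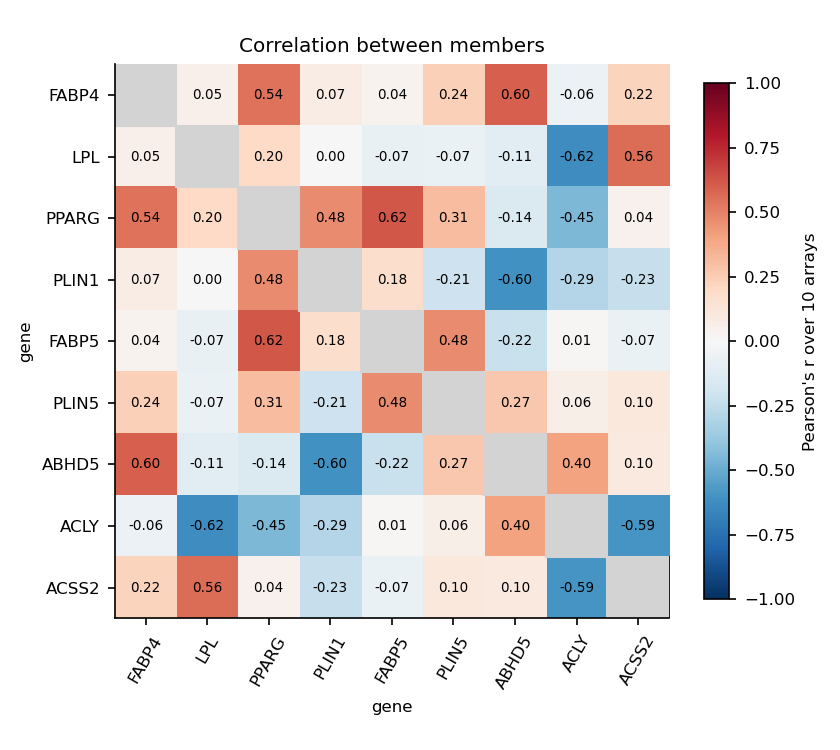
Pearson's r over the 10 arrays for each pair of the 9 genes (colour scale from -1 to 1, value printed in each cell), with the fat cell genes FABP4, LPL, PPARG and PLIN1 first. Among these 4 the highest values are those of PPARG with FABP4 (0.54) and with PLIN1 (0.48), and no pair passed after adjustment.

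The genes whose pattern over the 10 arrays was most like that of each member were taken from 600 other named genes, by the highest r of any of their tested probes, so these values describe a choice among many and carry no p. All arrays share slide and brightness effects. For FABP4 the first was UCP1, the uncoupling protein that lets brown fat make heat, with r = 0.94 and rho = 0.90. Of 9354 probes with a value on every array, 2 had a higher r with FABP4. UCP1 had control levels of -2.43, -1.78, 1.59, -1.32 and -4.25, and levels of -0.04, -2.32, 0.15, 0.09 and -4.64 with cortisol. Like FABP4 it was not well above background on cortisol replicate 5, and its highest array was control replicate 3. It spanned 75.3-fold with an SD of 2.00, larger than that of 99.9% of the probes tested. Its treatment difference was 0.28 ± 1.16 (SE), within the spread between fetuses.

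FABP4 and UCP1 stayed close within a slide and without the dimmest arrays. Their correlation was 0.88 over the 6 arrays of slide 1, 0.93 between deviations from the slide means and 0.96 between deviations from the group means. It was 0.97 without cortisol replicate 1 and control replicate 5, the 2 arrays farthest from the FABP4 median. It was 0.86 over the 8 arrays left without replicate 5 of either group. Next to UCP1 came GSTA1-1, a glutathione transferase, with r = 0.93 and a signal well above background on 6 of 10 arrays. The other GSTA1-1 probe, well above background on 9 arrays, had r = 0.92 over the 8 arrays with a value. C3, complement component C3, had r = 0.93 with FABP4, and its other probe had r = 0.90. C3 levels were -0.09, 0.08, 2.56, 1.24 and -0.06 in controls, and 1.78, 0.97, 2.03, 1.57 and -0.77 with cortisol, so that the high FABP4 arrays were also high in C3.

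LEP and PCK1, the other fat cell markers tested, had correlations with FABP4 near or below 0. LEP, which encodes the fat cell hormone leptin, spanned 1.76-fold for the probe closest to FABP4 and had r = -0.06 with it. PCK1, the enzyme that feeds glyceroneogenesis in fat cells, had r = -0.03 for one probe and -0.50 for the other. UCP1 itself had r = 0.44 with PPARG, 0.15 with LPL and 0.17 with PLIN1 probe 1, against 0.68 with PLIN1 probe 2. Its r with PPARG was 0.97 over slide 1, 0.65 without cortisol replicate 4, whose PPARG spot lay in the low area, and -0.016 without control replicate 3 and cortisol replicate 3, the 2 arrays farthest from the PPARG median. ADRB3, the beta-3 adrenergic receptor of fat cells, was well above background on 0 of 10 arrays. At that dim signal its r with FABP4 was 0.83 over the 9 arrays with a value, and 0.79 over the 8 arrays left without replicate 5 of either group. Of 19 fat cell markers listed, 8 were on the array under those names, the 4 members among them, and 7 were tested. The mean level of LEP, UCP1 and PCK1 ran from -3.21 to -1.23 in controls and from -2.97 to -1.98 with cortisol. This mean had r = 0.82 with FABP4, 0.72 with PPARG, 0.52 with PLIN1 and 0.21 with LPL. It includes UCP1, already picked above as the named gene most like FABP4 (r = 0.94). UCP1 also had the widest range of the genes in the mean, while LEP and PCK1 did not follow FABP4. The 0.82 is therefore not separate from the UCP1 value and does not show a set of fat cell markers following FABP4. The r of the mean without UCP1 was not computed, and the part of fat cells in these levels was not tested. ADIPOQ, CIDEA and CIDEC were not analysed here.

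**Figure D5:**
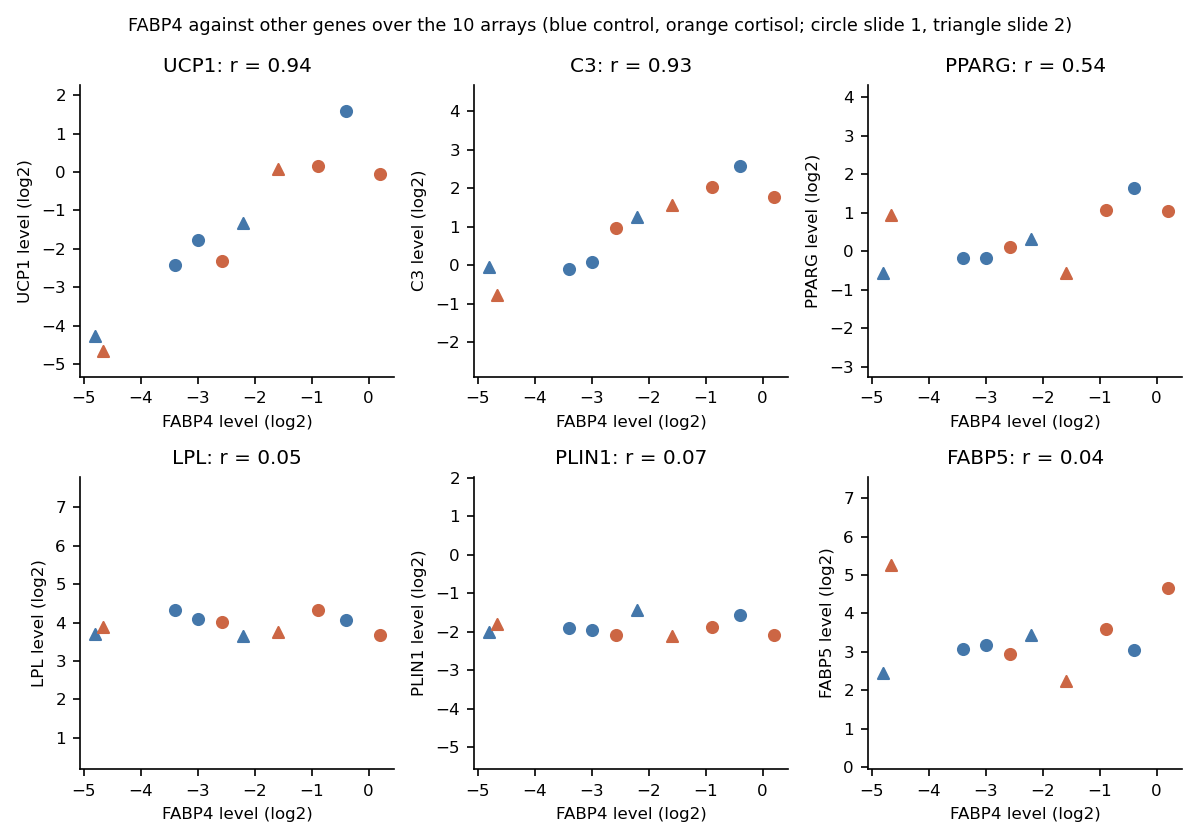
Levels of UCP1, C3, PPARG, LPL, PLIN1 and FABP5 (log2, vertical axes of equal span) against the level of FABP4 over the 10 arrays, with control in blue, cortisol in orange, circles for slide 1 and triangles for slide 2. UCP1 and C3 climb with FABP4 (r = 0.94 and 0.93), while LPL, PLIN1 and FABP5 have r = 0.05, 0.07 and 0.04, the last being 0.61 without cortisol replicate 5.

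For the other members the closest genes were of mixed kinds. PPARG was most like TRIP4 (r = 0.78), the monocyte receptor gene CD14 (0.74) and PLIN2, the droplet coat of most tissues (0.74). FABP5 was most like CPT1B, which admits fatty acids to muscle mitochondria (0.88), ITGB1 (0.85) and MCL1 (0.84). LPL was most like PSMA6 (0.85), ATP1B1 (0.85) and MDH (0.80). PLIN1 probe 1 was most like SLC9A3R1 (0.84), XCL1 (0.81) and HPCAL1 (0.81). PLIN5 was most like NRF1 (0.90), CSNK1D (0.81) and ART4 (0.81), and ABHD5 most like HACD1 (0.86), FGF7 (0.84) and SLC17A5 (0.83). ACLY was most like CRY1 (0.83), ACTG1 (0.81) and ASF1A (0.80), and ACSS2 most like DOHH (0.88), TSPO (0.87) and PSMD4 (0.86).

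The wider pathways were covered thinly by named probes, and no gene in them passed. Of 39 listed uptake and transport genes 6 were on the array under those names and 5 were tested, the 3 members included, with a median difference of 0.33, and of -0.046 over the 2 genes that are not members. CAV1, the caveolar coat protein, had 0.33 ± 0.22 (SE), and APOA1, the main protein of high-density lipoprotein, had -0.42 ± 0.20 (SE). FABP3 and CD36, main fatty acid carriers of heart muscle, were not analysed here.

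Of 36 listed genes of droplets, lipolysis and triglyceride synthesis 7 were on the array and 6 were tested, 4 of them higher with cortisol and none past the threshold. PLIN2 had 0.17 ± 0.27 (SE) and DGAT1, which makes the last bond of triglyceride, -0.11 ± 0.20 (SE). PLIN3 was not above background on any array. LIPA, the lysosomal lipase, had 0.03 ± 0.20 (SE).

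Of 36 listed genes of lipid and sterol synthesis 11 were on the array and 10 were tested, 5 of them higher. The level of TM7SF2, a sterol reductase of cholesterol synthesis, was -1.72 ± 0.23 (SD, n = 5) in control fetuses and -2.18 ± 0.26 (SD, n = 5) in cortisol fetuses. Its difference of -0.46 ± 0.15 (SE) was the only one in the 4 lists at an unadjusted p under 0.05 (0.0124, adjusted p = 0.990 in limma). ME1, which supplies reducing power for fat synthesis, had 0.32 ± 0.18 (SE) with a value on 8 of 10 arrays. SCD, which desaturates fatty acids, had 0.33 ± 0.26 (SE), and FASN, the fatty acid synthase, 0.22 ± 0.36 (SE) with 5 of 10 arrays well above background. SQLE, an early step of sterol synthesis, had -0.49 ± 0.43 (SE), and ACACA did not pass the filter on dim probes.

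Of 21 listed regulators 4 were on the array and tested, with a median difference of -0.11, and PPARG was the only one above 0. PPARGC1A, the coactivator of mitochondrial genes, had -0.19 ± 0.24 (SE), PPARA, the receptor that drives fatty acid oxidation, -0.07 ± 0.14 (SE), and CEBPB -0.15 ± 0.39 (SE).

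Markers of other cells moved with some members over the arrays. ACSS2 had r = 0.80 with the mean of MYOD1, TNNC2 and PYGM, 3 tested of 13 listed skeletal muscle genes. This mean ran from -0.87 to -0.36 in controls and from -1.32 to -0.86 with cortisol. Its genes had differences of -0.59 ± 0.17 (SE) for MYOD1, -0.27 ± 0.25 (SE) for PYGM and 0.05 ± 0.16 (SE) for TNNC2. ACSS2 also had r = -0.74 with the mean of the endothelial genes, 7 tested of 14 listed. This mean ran from -1.46 to -0.88 in controls and from -1.29 to -0.51 with cortisol. It was taken over the genes with a value on each array, and TEK had a value on 9 arrays and TIE1 on 8. Both lay below the mean, so a missing value raised it, and the part of this in r was not tested. With cortisol 5 of the 7 were higher, EDN1 (0.64 ± 0.27, SE) and TEK (0.58 ± 0.24, SE) the most. TIE1 (-0.53 ± 0.13, SE) and NOS3 (-0.15 ± 0.21, SE) were lower. PLIN5 had r = 0.78 with the mean of the smooth muscle genes CNN1 and MYLK, of 5 listed, which ran from 2.19 to 2.68 in controls and from 2.16 to 4.09 with cortisol. The 4.09 was on cortisol replicate 1, against at most 3.13 on any other array, and PLIN5 was also highest there (-1.53). The r without this array was not computed. LPL had r = 0.69 with the 4 heart muscle genes and -0.68 with the same endothelial mean, missing values included. The endothelial mean ran from -1.46 to -1.15 on the arrays of slide 1 and from -1.10 to -0.51 on those of slide 2. ACSS2 and LPL were lower on slide 2, and the part of the slide in their r with the endothelial mean was not tested. The mean of the macrophage genes CD14 and CD86, 2 tested of 12 listed, had r = 0.55 with PPARG and 0.47 with FABP4. CD14 had a value on 9 of 10 arrays. The mean on control replicate 2, -4.41, the lowest of all, is that of CD86 alone, so these r are not of 2 genes throughout. The part of these cell types in the member differences was not tested.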

How the data were processed

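Total RNA of 10 fetal left ventricles was labelled with a single dye and hybridised to a sheep Agilent array, 1 array per fetus. The scans were read in Agilent Feature Extraction (version 10.1.1.1 in the submitters' processing notes). The intensity used, gProcessedSignal, is background-subtracted and detrended, per the file headers, and was not normalised between arrays. The authors also deposited a table of log2 values made from the same arrays, whose scale was found from the values. It keeps the order of median minus background intensity in each array (Spearman correlation 1), with array medians from 5.77 to 5.79 and no centring of genes; how it was made is not given in the sources used here.

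Control spots and spots marked non-uniform, outlying or not found were left out, the log2 intensity was set relative to the array's 75th percentile, and spots of a probe were averaged. Probes well above background on at least 5 of 10 arrays entered limma 3.58.1 under R 4.3.3 (functions lmFit and eBayes, two-sided, without covariates, Benjamini-Hochberg over all probes). The code was tested on simulated data. Permutation tests were computed with numpy 2.4.6 under Python 3.11.15, and their p were adjusted with scipy 1.17.1. Precision is limited by the number of arrays.

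Of 15008 probes 13352 had no gene name, 727 were named by accession and 14 by hand. Genes without a named probe may be among the unnamed ones. No genome was used. The members and gene lists were chosen with earlier results of these data known. The text names all members, the 2 genes of smallest p in each of 4 lists and the 3 genes most like each member; FASN, SCD, SQLE, CEBPB and LIPA were added after their values were seen. Alternatives were another background correction, scaling, value table, dim-probe filter and variance model, flagged spots kept, the low area left out, slide and replicate blocks, each slide alone, and each array left out. The low area was found as neighbourhoods more than 0.75 log2 below the other arrays.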

Additional observations from a re-analysis of the deposited data

Results flagged for a closer look

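Of 61 groups of 5 values examined for 1 array far from the others of its group, 5 had one, and chance alone gives about 1 in 20. LPL probe 2 had a level of 3.98 on cortisol replicate 3, against 3.29 to 3.48 on the other cortisol arrays. PLIN5 probe 1 had -3.18 on cortisol replicate 2, against -1.93 to -1.53. APOA1 had 0.40 on control replicate 4, against -0.45 to -0.21. The mean of the skeletal muscle genes MYOD1, TNNC2 and PYGM was -1.32 on cortisol replicate 5, against -0.96 to -0.86. HBB, a haemoglobin chain and the only red cell gene measured, had 1.99 on cortisol replicate 1, against 5.37 to 6.58, and this array also had the highest FABP4 level.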

How the results depend on the processing

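No member probe and none of all probes was called in any alternative run; FABP4 was not tested where a probe had to be well above background on all arrays, which left 13 member probes. The replicate block gave 0 called of 14 and 0 of all probes (397 unadjusted); same-numbered arrays had correlations of deviations of 0.22, -0.0062, 0.15, 0.19 and 0.021, and 3 of 5 were closest to their own number, a hint from the data that the labels do not bear out. As not every pair was above 0.1, the block was kept as an alternative. It cut the SE of FABP4 from 0.96 to 0.55 and that of ACSS2 from 0.30 to 0.16. Same-numbered arrays also share a slide, so the replicate block and these correlations take in any slide effect. The slide block alone gave an SE of 0.86 for FABP4 and of 0.20 for ACSS2. The split of unadjusted calls was 149 higher and 268 lower with array weights, 169 and 300 without cortisol replicate 4, and 192 and 145 with quantile scaling; normexp gave 855 in all.

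The sign of the LPL difference turned with the deposited table (0.0054), within slide 2 (0.14), with array weights (0.062) and with the mean of its probes (0.078), and leaving out 1 array gave -0.13 to 0.051. The PLIN1 difference was 0.048 with normexp for probe 1. For probe 2 it was above 0 within slide 2 (0.19), without control replicate 3 (0.025) and without cortisol replicate 5 (0.038). The other 7 genes kept their sign in each alternative that tested them; leaving out 1 array gave 0.33 to 1.54 for FABP4, 0.32 to 1.08 for FABP5, 0.12 to 0.67 for PPARG, 0.24 to 0.66 for PLIN5, 0.14 to 0.31 for ABHD5, 0.12 to 0.48 for ACLY and -0.44 to -0.083 for ACSS2. The FABP4 and LPL correlation was -0.048 with normexp, -0.47 between slide deviations and -0.54 on slide 1. That of LPL and PLIN1 was -0.44 with normexp, -0.25 in the deposited table and -0.043 between group deviations. That of LPL and PPARG was -0.081 between slide deviations and -0.26 on slide 1. Leaving out 1 array gave -0.17 to 0.30 for FABP4 and LPL, -0.16 to 0.28 for FABP4 and PLIN1 and -0.12 to 0.42 for LPL and PLIN1. The number of pairs past the threshold was 1 without the 2 farthest arrays, and 0 to 1 without 1 array, PPARG with FABP5 each time. The cause of these turns was not tested. With 5 fetuses a group, intervals of FABP4 and FABP5 hold changes of several fold.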
